A study of Arabidopsis thaliana with 28 samples.

Results

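Between the 2 arrays of BAM7-Cat_Ox, 254 of 22746 probe sets differed by more than 1 on the log2 scale, a 2-fold difference, and these 254 probe sets are described here. They were chosen by that difference alone, so the difference is given as a description and carries no test. A probe set is a group of array features that together report 1 transcript level. BAM7-Cat_Ox is one of 10 overexpression groups (suffix Ox) of Arabidopsis thaliana Col-0. The remaining 9 are BAM7_Ox, BAM8_Ox, BAM7-DNA_Ox, BAM8-DNA_Ox, BAM8-Cat_Ox, BAM7-Lig_Ox, BAM8-Lig_Ox, BAM7-N_Ox and BAM8-N_Ox. The wild type and 3 mutants, bam7, bam8 and the double mutant bam7 bam8, complete the 14 groups. Each group has 2 arrays, which gives 28 in all. All plants were untreated, and their shoots were taken at an age of 3 weeks, 4 h after the lights came on in a 12 h light period. Each array holds RNA from a separate pool of 14 plants. The labels define neither the suffixes DNA, Cat, Lig and N nor the promoter, and they do not say how many transgenic lines stand behind a group.

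BAM7 and BAM8 are nuclear proteins of Arabidopsis that join a DNA-binding domain of the kind found in brassinosteroid-signalling transcription factors to a domain resembling the starch-degrading enzyme beta-amylase. The study asked what the enzyme-like domain does in DNA recognition and in transcriptional activation. Pools of plants of a single genotype differ in transcripts that respond to small differences in light, handling, water or pathogens, and they differ through the array itself, so replicate pools carry both kinds of spread. The tables used here pair no probe set with a gene, so probe sets appear by ID, no function was assigned to any of them, and the shoot origin was not checked against leaf, root or flower markers. In whole shoots, fewer cells of a type and less RNA per cell cannot be told apart.

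The BAM7-Cat_Ox replicate 2 array stood apart from the other 27. It lay below every other array by more than 0.5 on the log2 scale at 279 probe sets, against 0 to 30 such probe sets on each of the other 27 arrays. It also lay above every other array by that gap at 54 probe sets, against 0 to 42 on the others. BAM7-Cat_Ox replicate 1 had 10 probe sets alone at the bottom and 10 alone at the top. Of the 279 and 54 probe sets of replicate 2, 149 and 8 were among the 254. The 25th percentile of intensity was 8.37 on BAM7-Cat_Ox replicate 2 and 7.84 on replicate 1, against 6.78 to 8.2 on the 26 arrays of the other groups, and the array medians were 23.97 and 23.93, against 23.47 to 25.84. Whether the lifted low end has a part in the differences was not tested.

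**Figure D1:**
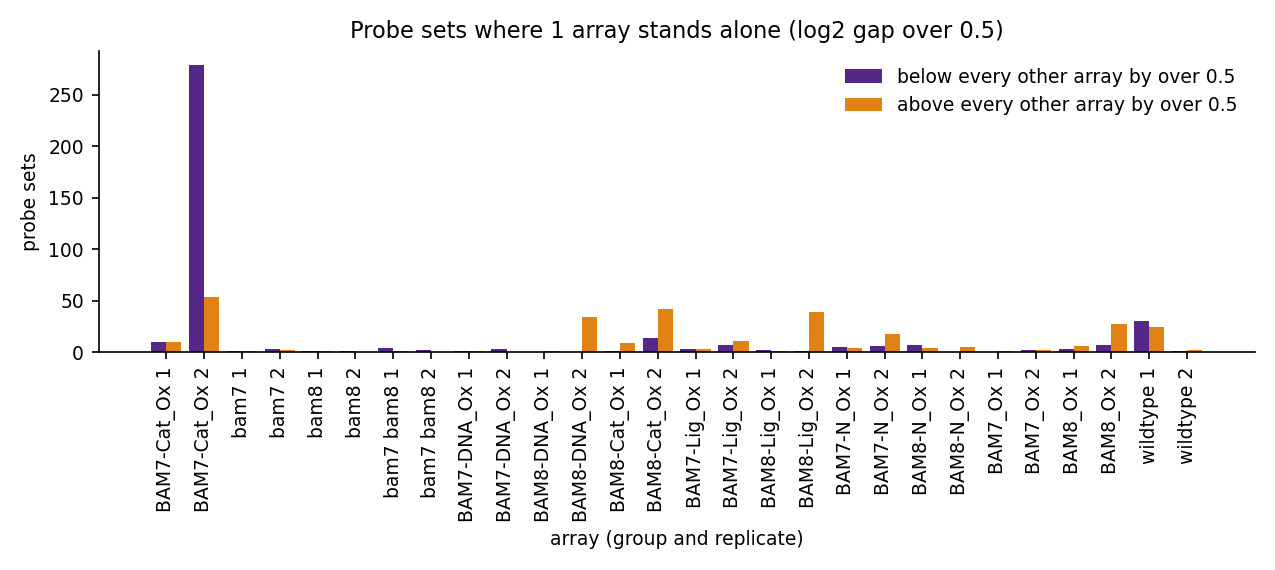
Number of probe sets (vertical axis) at which an array (horizontal axis, group and replicate number) lay below every other array (purple bars) or above every other array (orange bars) by more than 0.5 on the log2 scale. BAM7-Cat_Ox replicate 2 has 279 probe sets alone at the bottom, while no other array has more than 30.

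The differences ran mostly one way. Of the 254 probe sets, 206 were higher in BAM7-Cat_Ox replicate 1 and 48 were higher in replicate 2, where 254 probe sets are 1.12% of all. The median difference, replicate 1 minus replicate 2, was 1.22 for the 206 and -1.08 for the 48. A difference of more than 1.5 was reached by 53 of the 206 and by 2 of the 48, and a difference of more than 2 by 19 and by 1. The largest differences were 3.85 and -2.20. At the edge of the rule, the smallest included differences were 1.0039 and 1.006 in one direction and -1.0157 and -1.016 in the other, and the nearest excluded ones were 0.99885 and 0.99707, and -0.99922 and -0.99912. In 28 of the 254 the lower array lay under its own 25th percentile, against 6035 of all 22746 probe sets. A level can be background in that range, so these 28 differences may be lower bounds.

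The low values of replicate 2, and not high values of replicate 1, made up most of the 206. BAM7-Cat_Ox replicate 2 lay below all 26 arrays of the other groups at 192 of the 206, where it did so at 10.7% of all probe sets. BAM7-Cat_Ox replicate 1 lay above all 26 arrays at 23 of the 206, where it did so at 4.3% of all. For the 206, the median distance from the median of the 26 arrays was -1.17 in replicate 2 and 0.05 in replicate 1. Replicate 1 was within 0.5 of that median at 193 of the 206, replicate 2 at 6. The rule forces the 2 arrays apart, which raises both counts, so their excess over the shares of all probe sets carries no weight. It does not fix which of the 2 arrays leaves the range of the other groups.

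The 48 probe sets with the opposite sign were more evenly divided. BAM7-Cat_Ox replicate 2 lay above all 26 arrays at 26 of them, against 15.4% of all probe sets. Replicate 1 lay below all 26 arrays at 18 of them, against 3.7% of all. The rule raises these counts as well, so their excess over those shares carries no weight. The median distance of the 48 from the median of the other arrays was 0.66 in replicate 2 and -0.50 in replicate 1. Replicate 2 was the farther array at 26 of the 48 and replicate 1 at 22. Over all 254, only replicate 2 left the range of the other groups at 189 probe sets, only replicate 1 at 15, both at 29 and neither at 21.

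**Figure D2:**
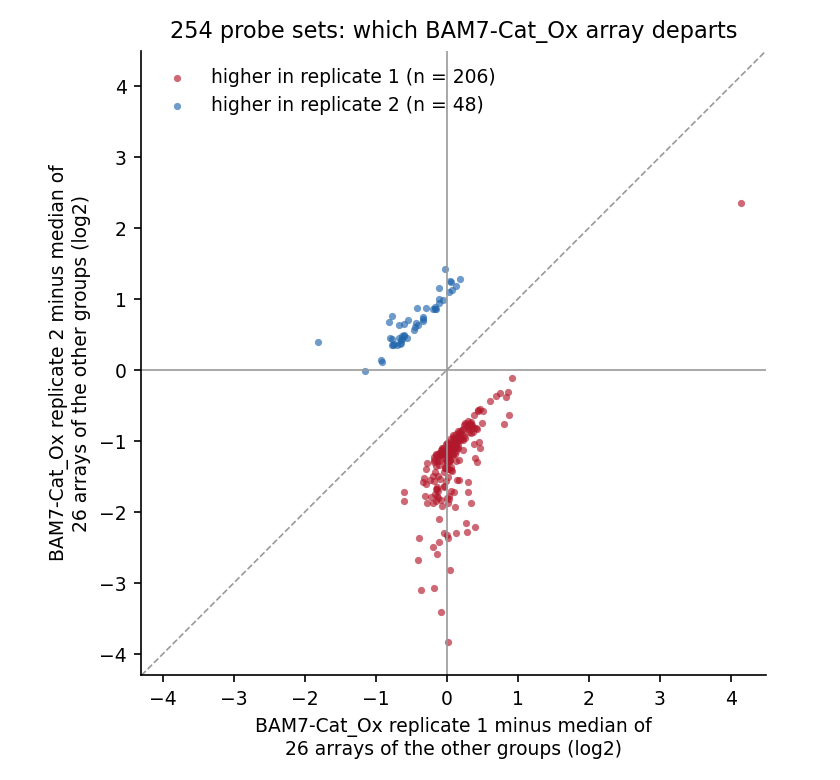
Each point is 1 of the 254 probe sets, plotted by how far BAM7-Cat_Ox replicate 1 (horizontal axis) and replicate 2 (vertical axis) lay from the median of the 26 arrays of the other groups, on the log2 scale. The red points (206, higher in replicate 1) form a vertical band near 0 on the horizontal axis with a median of -1.17 on the vertical axis, and the blue points (48, higher in replicate 2) lie along a slope with medians of -0.50 and 0.66. The dashed line marks equal values on both arrays.

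Probe set 266990_AT had the largest difference. Its intensity was 85.16 in BAM7-Cat_Ox replicate 1 and 5.92 in replicate 2, against 70.03 and 96.33 in the 2 wild type arrays. Over the 26 arrays of the other groups it ranged from 42.71 to 110.4 with a median of 83.9. Replicate 1 thus lay among the other groups, and replicate 2 lay below all of them. The level in replicate 2 was under the array's 25th percentile, so the 14.4-fold gap may be a lower bound. The lowest of the 26 arrays for 266990_AT was BAM8-Cat_Ox replicate 2.

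The second largest difference was that of 245007_AT, a far brighter probe set. It read 678.6 in BAM7-Cat_Ox replicate 1 and 67.79 in replicate 2, against 716.9 and 865.7 in wild type, a 10-fold gap between the BAM7-Cat_Ox arrays. The other 26 arrays ran from 391.2 to 900.9 with a median of 718. Here too only replicate 2 left the range, and the lowest of the 26 was again BAM8-Cat_Ox replicate 2.

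In the opposite direction 245306_AT came first, and here replicate 1 was the array that left the range. Its intensity was 51.82 in BAM7-Cat_Ox replicate 1 and 238.7 in replicate 2, against 198.9 and 151 in wild type. The other 26 arrays ranged from 78.6 to 353.5 with a median of 182. The next, 256438_S_AT, read 477.4 in BAM7-Cat_Ox replicate 1 and 1385 in replicate 2, against 744.8 and 934.6 in wild type. For 256438_S_AT both arrays left the range of the others, which was 486.3 to 1254, on opposite sides.

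**Figure D3:**
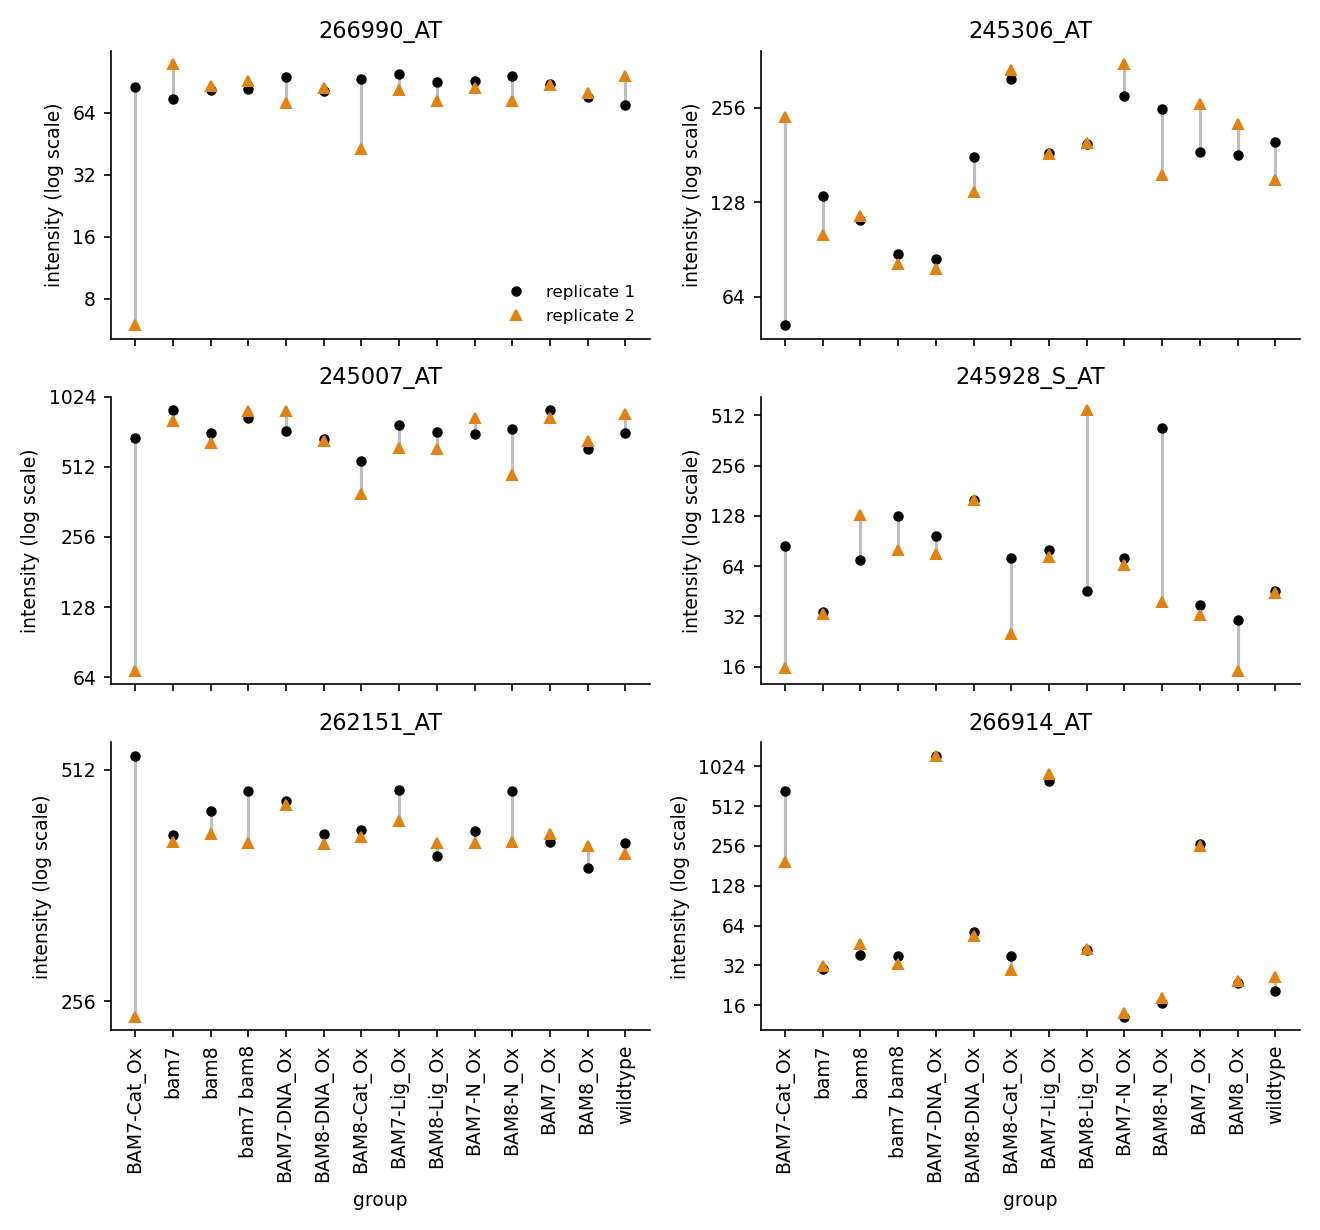
Intensity (vertical axis, log scale) of 6 of the probe sets in the 14 groups (horizontal axis), with replicate 1 as circles and replicate 2 as triangles joined by a grey line. In 266990_AT, 245007_AT and 262151_AT BAM7-Cat_Ox replicate 2 lies below every other array (BAM8-Cat_Ox replicate 2 is the next lowest in 266990_AT and 245007_AT), 245306_AT also varies between genotypes, 245928_S_AT splits the replicates of several groups, and 266914_AT is high in BAM7-Cat_Ox, BAM7-DNA_Ox, BAM7-Lig_Ox and BAM7_Ox.

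Seen array by array, the median of the 206 probe sets moved little outside BAM7-Cat_Ox replicate 2. Their median deviation from the median of the 26 other-group arrays was between -0.25 and 0.10 on each of those 26 arrays. The lowest of these, -0.25, belonged to BAM8-Cat_Ox replicate 2. Centring each probe set on the 26 arrays draws these medians together, so they do not show that each probe set held its level. Over the 26 arrays 266914_AT ran from 12.98 to 1233 and 245928_S_AT from 15.03 to 553.2. For the 48 probe sets the 26 arrays had median deviations between -0.08 and 0.07. Set against the wild type mean, the 206 had a median of -1.10 in BAM7-Cat_Ox replicate 2 and 0.15 in replicate 1, which average to a median group difference of -0.48. A BAM7-Cat_Ox mean for these probe sets therefore lies at a level that neither array showed. For the 48, the median against the wild type mean was 0.69 in replicate 2, -0.39 in replicate 1 and 0.15 for the mean of both.

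**Figure D4:**
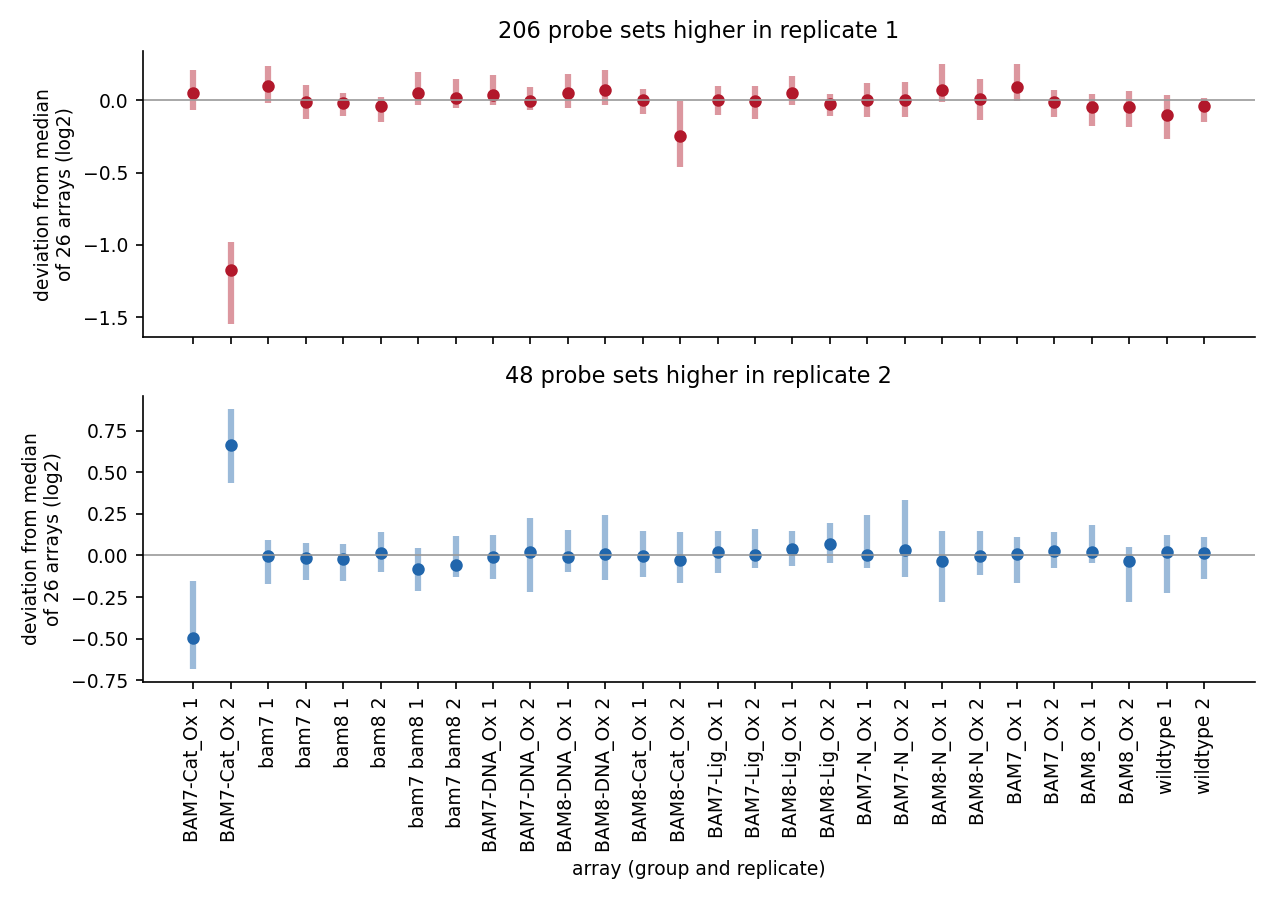
Deviation of the 206 probe sets higher in replicate 1 (upper panel) and the 48 higher in replicate 2 (lower panel) from the median of the 26 arrays of the other groups (vertical axis, log2 scale), for each array (horizontal axis). Points are medians over the probe sets and bars run from their 25th to their 75th percentile. In the upper panel BAM7-Cat_Ox replicate 2 is at -1.17 and every array of the other groups is between -0.25 and 0.10.

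In the other 13 groups the same probe sets rarely differed 2-fold between replicates. Of the 254, 237 stayed within a difference of 1 in all 13 groups, and 17 (6.69%) passed it in at least 1 group, against 1.74% of all probe sets. The 17 consisted of 12 that passed in 1 group, 1 that passed in 2 and 4 that passed in 4. These replicate pairs share no array with BAM7-Cat_Ox, so the rule used none of their values. A normalization of all arrays together could still link them, and the steps of normalization are not given. The share of probe sets of the same brightness that passed was not counted.

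By group, 5 of the 254 passed in BAM8-Cat_Ox, where 0.259% of all probe sets did, and 5 in BAM8-Lig_Ox (0.281%). The count was 4 each in BAM8-DNA_Ox (0.343%), BAM8_Ox (0.237%) and BAM8-N_Ox (0.106%). It was 2 each in bam7 (0.224%), BAM7-Lig_Ox (0.114%) and bam8 (0.0264%), and 1 each in BAM7_Ox (0.0835%) and BAM7-DNA_Ox (0.0703%). No member passed in bam7 bam8 (0.0396%), BAM7-N_Ox (0.0615%) or the wild type (0.22%). As a share of each group's own list, the members made up 33.3% of the 6 probe sets of bam8 and 16.7% of the 24 of BAM8-N_Ox, and between 3.92% in bam7 and 8.47% in BAM8-Cat_Ox in the other 8 groups with a member. The longest list outside BAM7-Cat_Ox, the 78 of BAM8-DNA_Ox, was 5.13% members.

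Smaller replicate differences in the other groups were close to those of probe sets from the middle of the members' range of brightness. The median absolute difference of the 254 was between 0.115 in bam8 and 0.248 in BAM8-Cat_Ox, and in 13 of 13 groups it was above the median of all probe sets, which was between 0.0763 and 0.162. The 254 are brighter than most, however. The 5327 probe sets whose level lay between the 25th and 75th percentiles of the members' levels had medians of 0.132 to 0.197. These 5327 include members, and the 254 span a wider range of level than they do. Against the 5327, the ratio of the medians was between 0.878 in bam8 and 1.34 in BAM8-Cat_Ox, and it was above 1 in 10 of the 13 groups. The same ratio in BAM7-Cat_Ox, which the rule fixes, was 4.93.

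**Figure D5:**
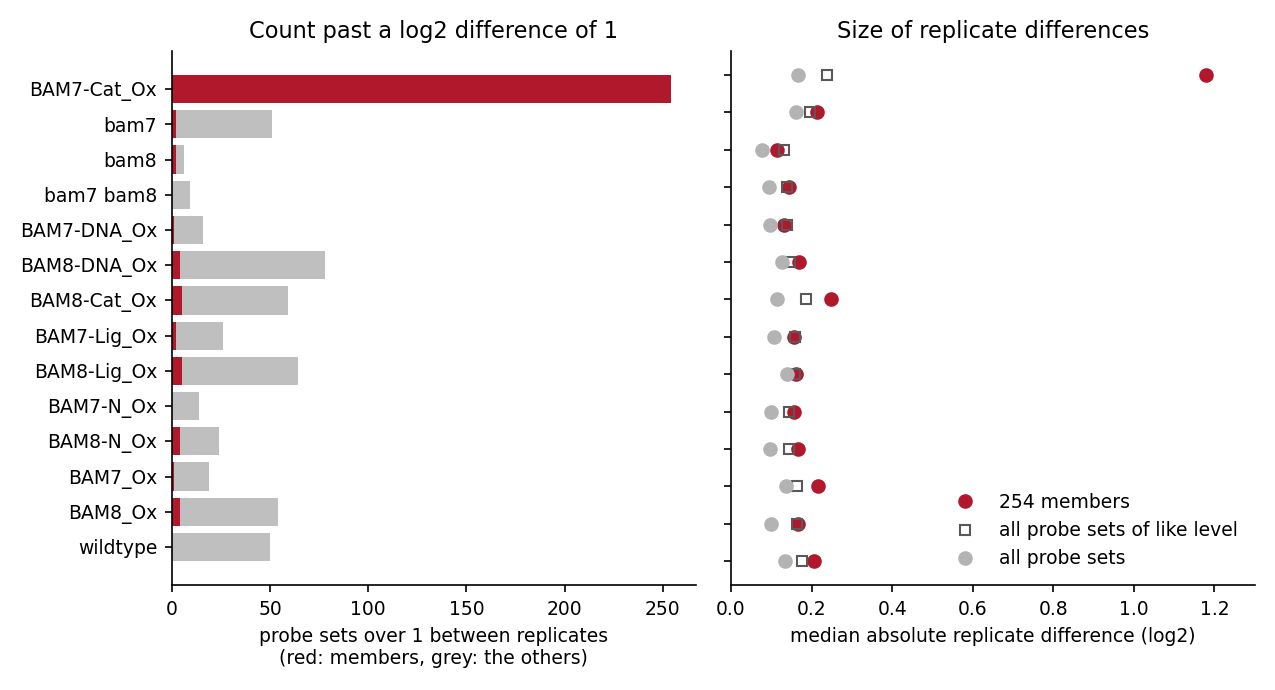
Left, number of probe sets that differed by more than 1 on the log2 scale between the replicates of each group, with the 254 members in red and all others in grey. Right, median absolute replicate difference (log2 scale) of the 254 members (red), of the 5327 probe sets of like level (open squares) and of all probe sets (grey). Outside BAM7-Cat_Ox at most 5 members pass in a group, and the red points lie at 0.115 to 0.248.

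Nor did the replicate differences of the other groups line up strongly with those of BAM7-Cat_Ox. Across the 254 probe sets, Pearson r between the BAM7-Cat_Ox difference and that of another group was between -0.16 in BAM8_Ox and 0.24 in BAM7_Ox, and it was positive in 11 of 13 groups. The probe sets are not independent of each other, and a replicate number carries no order, so these values are descriptions. The number of members with the same sign as in BAM7-Cat_Ox was between 109 and 177 of 254. The highest, 177, was that of BAM8-Cat_Ox, where the 206 had a median difference of 0.22.

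A few members varied between replicates in up to 4 of the other groups. Across the 13 other groups the pooled replicate SD of the 254 had a median of 0.18, against 0.136 over all probe sets and 0.166 over those of like level, and 61 of the 254 (24%) were among the 10% of probe sets with the largest SD. By direction, these were 22 of the 48 and 39 of the 206. The same share for probe sets of like level was not counted. The most variable was 245928_S_AT, with an SD of 1.07, the largest of all probe sets. It read 85.02 and 15.78 in BAM7-Cat_Ox, 45.51 and 553.2 in BAM8-Lig_Ox, 432.5 and 39.34 in BAM8-N_Ox, and 45.2 and 44.36 in wild type. Its high and low arrays thus changed from group to group, and for 245928_S_AT BAM7-Cat_Ox was not the widest pair. The next, 263268_AT, with an SD of 0.936, read 204.3 and 561.9 in BAM7-Cat_Ox, 214.7 and 11.96 in BAM8-Cat_Ox, and 121.7 and 218.3 in wild type. Here a single array, BAM8-Cat_Ox replicate 2, lay far below the rest.

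At the other end stood members whose replicates lay close together in the other groups, a measure that leaves out differences between groups. In 49 of the 254 the pooled SD of the other 13 groups was below the median of all probe sets, against 11373 of all 22746. Such steady probe sets were thus less frequent among the members than among all probe sets. The lowest was that of 262151_AT, at 0.0758. Probe set 262151_AT read 534.3 in BAM7-Cat_Ox replicate 1 and 244.2 in replicate 2, against 410.7 and 398 in wild type, and the 26 arrays of the other groups kept between 381.3 and 481.4. Both BAM7-Cat_Ox arrays lay outside that range, replicate 1 slightly above it and replicate 2 well below it. The second lowest was 253189_AT, at 0.0803. It read 76.9 and 27.06 in BAM7-Cat_Ox, against 86.25 and 86.98 in wild type, and the 26 arrays kept between 77.21 and 100.7.

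The members sat in the middle and upper range of brightness. Their median intensity over the other groups was 46.8, with 23.56 and 82.8 as the 25th and 75th percentiles, against a median of 24.2 over all probe sets. With all probe sets in 10 bins of equal size by level, the share that belonged to the 254 was 0% in the lowest bin, 2.46% in the seventh and 1.01% in the highest. Across the same bins BAM7-Cat_Ox replicate 2 deviated from the other groups by a median of 0.09 in the lowest. The median was 0.21 in the third bin and -0.06 in the highest. The value for the 254, -1.08, comes from an array that the rule used, so it cannot be weighed against the bins. Probe sets ending in _s_at or _x_at, which can detect several related transcripts, made up 11 of the 254 and 1061 of all.

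The shape of the replicate lists differed between groups. In BAM7-Cat_Ox, 192 of the 254 probe sets had replicate 2 below the range of the 26 arrays of other groups. The next longest lists leaned upward: in BAM8-DNA_Ox, 52 of 78 had replicate 2 above the range, and in BAM8-Lig_Ox, 45 of 64 did. The wild type list of 50 had replicate 1 below the range at 27. These are counts over lists chosen by the same difference in each group, and the difference between groups was not tested.

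To ask whether the 254 also differ between genotypes, the 13 other groups were fitted without the BAM7-Cat_Ox arrays. The moderated F-test of limma over the 13 group means called 22 of the 254 at an adjusted p under 0.05, or 8.66%, against 6.63% of all probe sets, which is near the background. The 22 comprised 17 of the 206 and 5 of the 48. In the contrasts of 12 lines with the wild type, 24 of the 254 (9.45%) were called at least once, against 7.17% of all, and 15 of the 24 were also among the 22. That second count rests on single arrays: it was 8 (3.15%) without wild type replicate 1, where 2.92% of all probe sets were called, 15 (5.91%, against 4.58%) without BAM8-N_Ox replicate 1 and 39 (15.4%, against 8.61%) without BAM8-Cat_Ox replicate 1. With the BAM7-Cat_Ox arrays in the fit, which the rule makes wide for these probe sets, the counts fell to 4 (1.57%, against 5.5% of all) and 3 (1.18%, against 5.85%). A group of 2 arrays against another of 2 cannot give a two-sided exact permutation p below 0.333, so all calls rest on the spread pooled over the groups.

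The strongest genotype difference among the 254 was that of 266914_AT, which was bright in 4 BAM7 lines. It read 670 and 193.2 in BAM7-Cat_Ox, 1233 and 1232 in BAM7-DNA_Ox, 796 and 892.3 in BAM7-Lig_Ox, 265.3 and 257.2 in BAM7_Ox, and 20.62 and 26.28 in wild type. The pairs of the other BAM7 lines were close together, while those of BAM7-Cat_Ox stood 3.47-fold apart, with replicate 1 above and replicate 2 below both BAM7_Ox arrays. Against wild type 266914_AT rose by 5.73 in BAM7-DNA_Ox (SE 0.127, limma adjusted p 1.61e-14), by 5.18 in BAM7-Lig_Ox (adjusted p 8.56e-14) and by 3.49 in BAM7_Ox (adjusted p 5.76e-11), each on the log2 scale with the same SE. In BAM7-N_Ox it fell by 0.79 (limma adjusted p 0.00158), at 12.98 and 14.02. It also rose by 1.25 in BAM8-DNA_Ox (limma adjusted p 7.44e-05), and by 0.86 both in bam8 (adjusted p 0.0224) and in BAM8-Lig_Ox (adjusted p 0.0189). The calls in BAM7-DNA_Ox, BAM7-Lig_Ox and BAM7_Ox held in 33 of 33 alternatives, and those in BAM7-N_Ox and BAM8-DNA_Ox in 32, lost with the BAM7-Cat_Ox arrays in the fit (0.235 and 0.144). The call in bam8 was lost there too (0.655), and on leaving out bam8 replicate 2 (0.266) or wild type replicate 1 (0.144). The call in BAM8-Lig_Ox was lost there as well (0.243), with array weights (0.114), without wild type replicate 1 (0.0856) and without BAM8-Lig_Ox replicate 2 (0.0699). Its F-test had an adjusted p of 8.07e-15, and it was called in 33 of 33 alternatives with adjusted p between 4.29e-18 and 1.29e-09.

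Next by F-test came 245306_AT, the member with the largest difference in favour of replicate 2. Its adjusted p was 8.55e-05, with a range over 33 alternatives of 2.48e-06 to 0.0488. It read 278.5 and 353.5 in BAM7-N_Ox, 315.4 and 337.8 in BAM8-Cat_Ox, 84.31 and 78.6 in BAM7-DNA_Ox, and 198.9 and 151 in wild type. Against wild type it rose by 0.86 on the log2 scale in BAM7-N_Ox (SE 0.216, limma adjusted p 0.036), and the value in BAM7-DNA_Ox, -1.09, did not pass (adjusted p 0.0602). Nor did the value in bam7 bam8, -1.04 (limma adjusted p 0.0649), or the rise in BAM8-Cat_Ox. The bam7 bam8 value passed in some alternatives, among them without the dimmest probe sets (0.0375) and with a robust variance trend (0.0272). Adjustment was made within each contrast, so differences of like size can pass in one contrast and fail in another. The call in BAM7-N_Ox was lost on leaving out either wild type array (0.0534 without replicate 1, 0.154 without replicate 2) or either BAM7-N_Ox array (0.0546 and 0.32), after cyclic loess (0.0628) and with the BAM7-Cat_Ox arrays in the fit (0.324). The BAM7-DNA_Ox value passed in 5 of 33 alternatives: without wild type replicate 2 (0.023), without either BAM8-N_Ox array (0.0264 each), without the dimmest probe sets (0.0355) and with a robust variance trend (0.0225). By contrast, 266990_AT showed no call between the 13 groups (adjusted p 0.94), nor did 262151_AT (0.547), 256438_S_AT (0.396), 245928_S_AT (0.38), 263268_AT (0.66) or 253189_AT (0.503). For 245007_AT the adjusted p was 0.0891. It passed in 3 of 33 alternatives: without BAM8-N_Ox replicate 1 (0.021), without BAM8-N_Ox replicate 2 (0.0447) and with a robust variance trend (0.0313). For 263268_AT it passed in 1 of 33, without BAM8-Cat_Ox replicate 1 (0.00407).

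Across the 26 arrays of the other groups the 206 shared some of their variation. The mean Pearson r over all pairs of the 206 was 0.134, against 0.017 over all pairs of the 22746 probe sets, and for the 48 it was 0.012. The arrays behind these values include pools of every other genotype, and probe sets of a single array share its normalization, so the values are given without a p. Among these arrays BAM8-Cat_Ox replicate 2 lay lowest for the 206, at a median deviation of -0.25, and its part in the 0.134 was not tested. Probe sets of like level were not compared here.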

How the data were processed

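Shoot RNA of 28 plant pools was measured on 1 array each. As deposited, each probe set has a linear intensity, from 2.89 to 22277, and RMA is the only tool named in the submitters' processing notes. Its version and steps are not given in the sources used here. Values were taken to log2, and 1 control probe set of 22747 was left out. Members were the probe sets whose BAM7-Cat_Ox arrays differed by more than 1. Arrays have no read depth, and their number limits the precision.

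One mean per group was fitted with limma 3.58.1 in R 4.3.3 to the 26 arrays without BAM7-Cat_Ox (13 residual degrees of freedom plus 3.72 from all probe sets, median SE 0.132), with Benjamini-Hochberg adjustment over 22746 probe sets, a threshold of 0.05 and two-sided tests of 12 contrasts. The calculations were first tested on simulated data. The probe sets given by ID are the 2 largest differences in each direction, the 2 smallest F-test p, and the 2 most and 2 least variable members in the other groups. The rule allowed more of them, restricted to probe sets of 1 gene, and lists of genes were prepared by locus. Neither could be applied, since the tables at hand do not link probe sets to loci. Members, lists and rules were chosen with earlier results of these data known. Python 3.11.15 with matplotlib 3.10.9 made the figures. Comparisons with probe sets of like level, and counts of arrays standing alone, were added after seeing the data. The labels call the replicates biological.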

Additional observations from a re-analysis of the deposited data

How the results depend on the processing

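The 254 probe sets became 263 after cyclic loess, 305 after quantile normalization (an alternative chosen after seeing the data), 244 without the third that was dimmest by mean and 243 without those ending in _s_at or _x_at. Of the 254, 235 remained after cyclic loess and 248 after quantile normalization. The count was 649 at a threshold of 0.8 and 55 at 1.5, with 68% and 96.4% higher in replicate 1, against 81.1% at 1. Replicate 2 lay below the 26 other arrays at 208 of 221 after cyclic loess and 225 of 237 after quantile normalization. The 17 members past 1 in another group were 15 to 18 in these settings. The F-test count of 22 was 4 with the BAM7-Cat_Ox arrays in the fit (5.5% of all probe sets called), 19 to 32 when a single array was left out (4.65% to 7.79%) and 21 to 29 in the other settings (6.18% to 10.1%). The count of 24 over 12 contrasts was 3 with the BAM7-Cat_Ox arrays in the fit (5.85%), 8 to 39 when a single array was left out (2.92% to 12%) and 21 to 31 otherwise (6.53% to 10.2%). A fit that leaves a group with 1 array assumes that it varies like the others. The replicate block gave 23 for the F-test and 23 for the contrasts. Replicate differences of different groups correlated between -0.38 and 0.43 over all probe sets, above 0.1 in 24 of 91 pairs of groups. Since not every pair was above 0.1, the numbers were not taken to pair the samples. This does not show that arrays of different groups vary independently, which was not tested. None of the 18 recomputed differences of named probe sets changed sign. Each group has 2 arrays, which limits both the replicate and the genotype comparisons. No gene in the BAM7-Cat_Ox comparison can be checked by leaving out replicate 2, since the rule needs both arrays.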

Other observations

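BAM8-Cat_Ox replicate 2 was the array of the other groups whose values for the 206 probe sets lay lowest, with a median deviation of -0.25 and percentiles of -0.46 and 0.00 at the 25th and 75th. It had 14 probe sets alone at the bottom and 42 alone at the top, 1 of each among the 254. Wild type replicate 1 had 30 probe sets alone at the bottom and 25 alone at the top, none of them among the 254, against 1 and 2 for wild type replicate 2. BAM8-Lig_Ox replicate 2 had 39 alone at the top and BAM8-DNA_Ox replicate 2 had 34.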
